A study of Mus musculus with 4 samples.

Results

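Genes of bile acid transport and of the receptors that sense bile acids were followed through mouse liver regeneration by chromatin accessibility. The 10 chosen by name were Slc10a1, Slco1b2, Abcb11, Abcb4, Abcc2, Abcc3, Nr1h4, Nr0b2, Fgfr4 and Klb, 10 of the 55413 genes of GENCODE vM21, and all 10 were among the 22524 genes with a mean of at least 5 CPM. The level of a gene was the number of transposase cut sites in peaks that overlapped its body or the 2 kb upstream of it, scaled to the total of cut sites in all peaks of the library (counts per 1e+06, CPM). Single-nucleus ATAC-Seq (scATAC-Seq) uses the Tn5 transposase, which cuts open DNA, and a droplet barcode to assign each fragment to a nucleus. Hepatocytes were obtained by collagenase perfusion from adult male C57BL/6J mice on normal chow, labelled 10 to 12 weeks old, either from undamaged liver (PHx 0 h) or 48, 72 or 96 h after surgery in which most of the liver was resected (partial hepatectomy, PHx). A single library was made per time point. At 0 and at 48 h it was built on 1 preparation of hepatocytes. The sources used here do not say if animals were pooled for 72 and 96 h. With 1 library per time point, time, animal and library cannot be told apart and no test was possible, so the 95% intervals below (exact Poisson) cover counting error only.

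Hepatocytes take bile acids from portal blood across their basolateral face and pump them, with phospholipid and organic anions, across the canalicular face into bile. Bile acids bind the nuclear receptor FXR (Nr1h4), which induces the export pumps and the repressor SHP (Nr0b2), while FGF15 from the ileum reaches the hepatocyte through FGFR4 and its coreceptor beta-Klotho (Klb) and restrains bile acid synthesis. After PHx the remaining hepatocytes meet a larger bile acid load per cell while they divide. FXR binds as a dimer with RXR to an inverted repeat of AGGTCA with 1 base between the repeats.

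The sequences upstream of the starts are shown first, since they were searched for the letters to which the receptors of the axis are known to bind. The RefSeq promoter table (GRCm38.p6, the mm10 build) held 9 of the 10 genes. Abcc3 had no entry. No promoter of the 9 genes (250 bases before to 50 after the start, both strands) held the exact core of this element (GGTCA, any base, TGACC), which was present in 13 of 32851 promoters (0.0396%). With at most 1 mismatch to the full element of 13 bases (AGGTCA, any base, TGACCT), a search added after the exact one had been seen, 2 of the 9 genes had a match, Abcb11 and Slco1b2, against 27 of the 32851 promoters (0.0822%). The 250 bases upstream of each start are printed on the strand of the gene, 5′ to 3′, with that match in capitals for the first 2 genes, an NR5A2-type match (CAAGGNCA, present in 6.71% of all promoters) for Nr0b2, and the single repeat AGGTCA with C/EBP-type matches (TTGCNNAA, 10.8% of promoters) for Slc10a1.
Abcb11, chr2:69342617-69342866, minus strand: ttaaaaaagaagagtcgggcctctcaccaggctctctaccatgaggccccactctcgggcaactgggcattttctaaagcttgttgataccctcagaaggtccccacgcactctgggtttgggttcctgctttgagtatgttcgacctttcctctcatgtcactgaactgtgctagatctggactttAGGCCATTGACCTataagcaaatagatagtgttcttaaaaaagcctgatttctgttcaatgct
Slco1b2, chr6:141629268-141629517, plus strand: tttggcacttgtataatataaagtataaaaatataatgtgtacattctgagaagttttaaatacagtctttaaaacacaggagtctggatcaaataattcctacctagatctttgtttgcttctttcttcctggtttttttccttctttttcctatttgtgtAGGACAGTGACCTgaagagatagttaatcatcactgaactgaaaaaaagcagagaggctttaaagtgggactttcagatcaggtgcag
Nr0b2, chr4:133553126-133553375, plus strand: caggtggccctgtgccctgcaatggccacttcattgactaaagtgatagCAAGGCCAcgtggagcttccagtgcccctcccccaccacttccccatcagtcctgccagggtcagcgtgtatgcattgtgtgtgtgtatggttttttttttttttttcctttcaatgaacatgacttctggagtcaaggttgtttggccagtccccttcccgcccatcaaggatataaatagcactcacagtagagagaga
Slc10a1, second start, chr12:80968080-80968329, minus strand: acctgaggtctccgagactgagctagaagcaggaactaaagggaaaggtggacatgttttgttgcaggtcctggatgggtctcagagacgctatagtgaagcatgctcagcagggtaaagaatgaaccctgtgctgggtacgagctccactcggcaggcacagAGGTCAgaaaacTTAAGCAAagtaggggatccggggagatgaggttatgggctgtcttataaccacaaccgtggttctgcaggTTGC
In Abcb11 the match began 63 bases before the start and differed from the motif at T4C, and in Slco1b2 it began 88 bases before the start and differed at T4A, with positions counted from 1 at the 5′ end of the 13-base element. The Slc10a1 stretch precedes a second RefSeq start 626 bp downstream of the first and lies within intron 1 of the longest GENCODE transcript (chr12:80968058-80968610), and the last 4 capitals are the first bases of a match that runs over the start. The single repeat AGGTCA, which is contained in each of the Abcb11 and Slco1b2 matches, was present in 5 of the 9 genes (Abcb11, Slco1b2, Nr1h4, Slc10a1 and Abcc2), which is 5 of their 10 promoters, and in 16.3% of all promoters. Slc10a1 held it at its second start, and its first promoter held none of the motifs. No promoter of the 9 held the AP-1-type TGANTCA (7.81% of promoters) or the HNF4A-type CAAAGTCCA (0.475%).

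Beyond the promoters, the peak regions that the gene windows touch (0.544 Mb in all) held 5 matches of the inverted repeat with at most 1 mismatch, including those of Abcb11 and Slco1b2. That is 9.19 per Mb, against 1109 matches in 209.3 Mb of all peak regions (5.30 per Mb). The other 3 are shown with the match in capitals, since they lie outside the promoters, with the densities of the peaks over them given next.
Slco1b2 intron, match at chr6:141642931-141642943, plus strand, substitution T4A: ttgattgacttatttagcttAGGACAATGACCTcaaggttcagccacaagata
Abcb4 intron, match at chr5:8928745-8928757, plus strand, substitution C11T: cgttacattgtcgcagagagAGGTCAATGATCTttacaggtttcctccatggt
Past the Abcb4 end, match at chr5:8997873-8997885, plus strand, substitution A10C: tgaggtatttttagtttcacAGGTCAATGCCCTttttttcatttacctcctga
The peak over the Abcb11 match had 6.57, 5.39, 8.66 and 14.1 CPM per kb at 0, 48, 72 and 96 h. The peak over the Slco1b2 promoter match had 5.65, 6.76, 4.81 and 11.7 CPM per kb, and its intron match lay in a peak of 5.65, 6.76 and 6.70 CPM per kb at 0, 48 and 72 h and in none at 96 h. The Abcb4 intron match lay in a peak of 4.19, 6.46, 10.9 and 18.6 CPM per kb, and the match past the gene end in one of 9.09, 10.6, 8.75 and 18.7 CPM per kb. All of these densities are those of a whole peak, which was 67249 bp long over both Slco1b2 matches at 0 h, and say nothing of binding at the match.

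The libraries differed in depth and in how peaks were called, and both bear on every value here. The numbers of nuclei, barcodes with at least 1000 counts, were 3977, 3892, 4256 and 3224, with 136582768, 62000846, 24724883 and 14935507 counts. Peaks were called in each library on its own and covered 153.6, 179.0, 141.2 and 60.9 Mb. Between 27 and 60 nuclei of a pair of libraries carried the same barcode. All 10 hepatocyte markers had counts in every library, with a summed level of 3983, 4616, 3046 and 4342 CPM. The summed levels of 10 endothelial markers (361, 372, 444 and 208 CPM) and 10 Kupffer and other myeloid markers (171, 240, 216 and 110 CPM) stand beside it. Of the Kupffer cell markers, Vsig4 and Cd5l were at 0 in every library. Clec4f and Adgre1 had counts at 48 and 72 h, and Marco and Timd4 at 72 h alone. Stellate and mesenchymal markers summed to 111, 201, 260 and 187 CPM, and biliary markers to 177, 158, 179 and 169 CPM, with Krt19 at 0 in all but the 72 h library. Lymphoid markers summed to 1.35, 48.3, 3.76 and 0 CPM. The part of these levels in the results was not tested.

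In CPM, accessibility over the 10 genes was mostly lower after PHx than in undamaged liver. Of the 10, 3 were lower by more than 1.5-fold at 48 h, 7 at 72 h and 6 at 96 h, and 0 were higher by that much at any time. Among all 22524 genes, 7.85%, 17.6% and 20.1% were lower and 13.7%, 19.3% and 18.0% higher by the same rule. The median log2 ratio to 0 h of the 10 was -0.28, -0.74 and -0.73, while that of all genes was -0.04, -0.03 and 0.06. Abcc3, Slco1b2, Slc10a1 and Nr0b2 had the lowest ratios at 96 h, and Fgfr4 was nearest to its 0 h level at 72 and 96 h. Fewer nuclei with an open locus and less signal per nucleus cannot be told apart in these sums. Each peak was also counted at most once per nucleus, whatever its length. By that count 0, 1 and 1 of the 10 were lower and 3, 4 and 3 higher. The median of the 10 was then 0.31, 0.42 and 0.40. Of all genes 5.42%, 17.5% and 19.7% were then lower and 9.46%, 14.5% and 12.9% higher, with medians of -0.06, -0.10 and -0.01. That count can rise with the number of peaks called over a gene, since 1 peak adds at most 1 per nucleus. Slco1b2 held 1, 4, 17 and 20 peaks and Abcc2 1, 2, 16 and 20 at 0, 48, 72 and 96 h. Not all members gained peaks in this way, as Abcb11 held 30, 26, 34 and 29. The part of peak number was not tested.

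**Figure D1:**
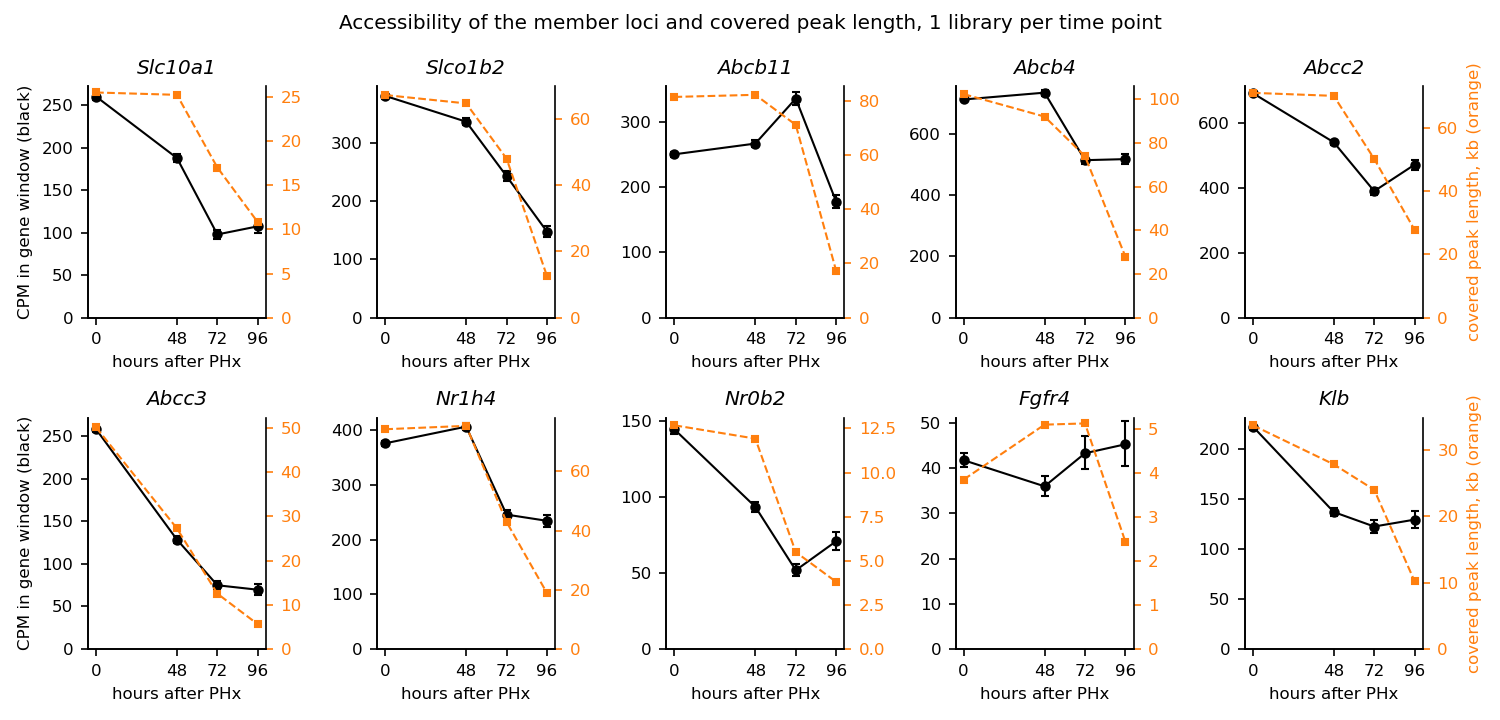
Gene window level in CPM (black circles, left axis, bars are 95% counting intervals) and covered peak length in kb (orange squares, right axis) of the 10 genes against hours after PHx, 1 library per time point. Covered length is shortest at 96 h in every panel, and the level of Abcb11 alone is highest at 72 h, at 336.3 CPM.

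The uptake transporters were both lower in CPM at 72 and 96 h. Where each peak counted once per nucleus their ratios had the opposite sign, in a setting where more peaks over a gene add more counts. Slc10a1 (ENSMUSG00000021135.8, chr12:80953183-80968705, minus strand) encodes NTCP, the sodium-dependent carrier that takes up most conjugated bile acids. Its window had 260.1, 187.8, 97.8 and 107.4 CPM at 0, 48, 72 and 96 h, in 25549, 25282, 17032 and 10825 bp of peaks. The log2 ratios to 0 h were -0.47 (-0.51 to -0.43), -1.40 (-1.5 to -1.33) and -1.27 (-1.38 to -1.17). At 48 h the locus was 1 peak of nearly the same length as at 0 h, and 99.0% of the bases in the 0 h peak lay in it, so that lower level was not accompanied by a shorter peak. The peak at 0 h ran from -0.707 to 24.841 kb relative to the start, past the gene end and into Srsf5. Over that whole stretch the levels were 260.1, 187.8, 132.5 and 147.4 CPM, and the log2 ratios -0.47, -0.97 and -0.82. With each peak counted once per nucleus the ratios were 0.33, 0.32 and 0.56, and the window held 1, 1, 3 and 6 peaks at 0, 48, 72 and 96 h.

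Slco1b2 (chr6:141629518-141686646, plus strand) encodes OATP1B2, a sodium-independent carrier of bile acids, bilirubin and drugs. Its levels were 379.9, 335.6, 242.3 and 147.2 CPM in 67249, 64725, 48045 and 12538 bp, lower at each time point than at the one before. The log2 ratios were -0.18 (-0.21 to -0.15), -0.65 (-0.70 to -0.59) and -1.36 (-1.46 to -1.28). A single peak spanned the whole gene at 0 h, and 4, 17 and 20 peaks lay over it at 48, 72 and 96 h. At 96 h a further part of the stretch carried peaks just past the window, and with these the level was 223.0 CPM and the ratio -0.77. Counted once per nucleus, the peaks of Slco1b2 gave 1.51, 1.67 and 1.23.

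The canalicular pumps did not move alike. Abcb11 (chr2:69238282-69342616, minus strand) encodes BSEP, the bile salt export pump and a textbook target of FXR. Its levels were 250.7, 267.2, 336.3 and 177.8 CPM in 81454, 82236, 71136 and 17186 bp, and the log2 ratios were 0.09 (0.05 to 0.13), 0.42 (0.37 to 0.47) and -0.49 (-0.58 to -0.41). It was thus the member with the highest ratio at 72 h, although under the 1.5-fold limit. The difference lay inside the gene. The region over the start, which holds the inverted repeat shown above, had 50.6, 43.6, 43.9 and 40.0 CPM, whereas the 16 regions between 7.589 and 67.083 kb downstream had 80.6, 118.2, 175.2 and 64.5 CPM. In this middle stretch, singled out after its values were seen, the log2 ratios were 0.55 (0.49 to 0.61), 1.11 (1.05 to 1.19) and -0.32 (-0.46 to -0.19), and the covered length was 32829, 39178, 35935 and 6744 bp. The 3′ region of the gene had 119.5, 108.2, 122.6 and 80.7 CPM. Genes of chromosome 2 as a whole had a median ratio of 0.12, 0.28 and 0.22, and relative to it the Abcb11 window was at -0.03, 0.15 and -0.72.

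**Figure D2:**
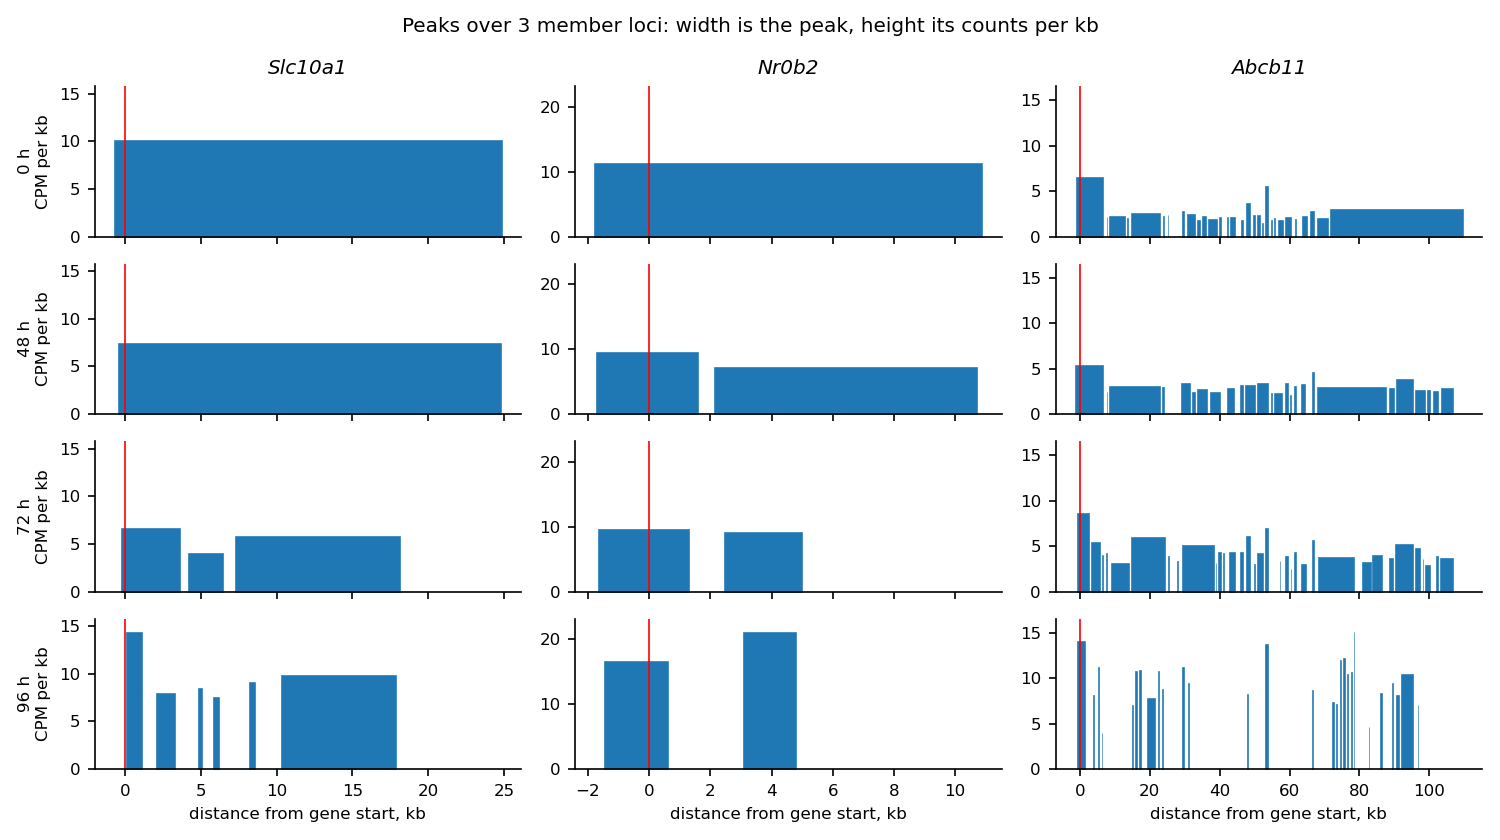
Peaks called in each library over Slc10a1, Nr0b2 and Abcb11 against distance from the gene start in kb (red line), on the strand of the gene. The width of a bar is the peak and its height the counts per kb (CPM per kb), and Slc10a1 and Nr0b2 each lie under 1 broad peak at 0 h and under 6 and 2 shorter peaks at 96 h.

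Abcb4 (chr5:8893717-8959231, plus strand) encodes MDR2, the floppase that supplies phosphatidylcholine to bile. Its levels were 712.6, 734.9, 514.3 and 517.8 CPM in 102341, 92063, 73905 and 27874 bp. The log2 ratios were 0.04, -0.47 and -0.46. Over every peak of the regions that the window touches they were 0.04, -0.23 and 0.42 (0.38 to 0.46), so the direction at 96 h turned. These regions include a 3′ domain that extends over the neighbouring gene Crot. Without it the levels were 317.7, 277.9, 245.5 and 227.0 CPM and the ratios -0.19, -0.37 and -0.48. The domain itself, 64.492 to 108.131 kb from the start, kept 43426, 42962, 41594 and 38646 bp of peaks and had 394.9, 457.0, 363.7 and 726.0 CPM, with a log2 ratio of 0.88 (0.84 to 0.92) at 96 h. Regions of near-equal length had a median ratio of 1.254 at that time, so the value does not stand above regions that kept their length. The last inverted repeat shown above lies in this domain, 104156 bp from the Abcb4 start.

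Abcc2 (chr19:43782192-43840740, plus strand) encodes MRP2, which exports conjugated bilirubin and glutathione. Its levels were 692.0, 540.7, 389.9 and 471.6 CPM in 71103, 70152, 50224 and 27734 bp, lowest at 72 h, and the log2 ratios were -0.36 (-0.38 to -0.33), -0.83 (-0.87 to -0.78) and -0.55 (-0.60 to -0.50). At 48 h 98.2% of the bases in its 0 h peak were still in peaks. Genes of chromosome 19 had a median ratio of -0.46, -0.24 and -0.20, since that chromosome held 3.02% of the counts at 0 h and 2.20%, 2.48% and 2.43% later. Relative to its chromosome Abcc2 was at 0.11, -0.58 and -0.35, so its lower level at 48 h was not seen on that scale. With each peak counted once per nucleus Abcc2 turned to 0.82, 1.85 and 2.10. Its window held 1, 2, 16 and 20 peaks at 0, 48, 72 and 96 h, and each peak adds to that count.

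Abcc3 (chr11:94343295-94392997, minus strand) encodes MRP3, which exports bile acid and bilirubin conjugates back to blood and is known to increase in cholestasis. It had the widest range of the 10, with 257.9, 128.4, 74.9 and 69.6 CPM and log2 ratios of -1.0 (-1.06 to -0.96), -1.77 (-1.88 to -1.69) and -1.87 (-2.02 to -1.76). The covered length was 50117, 27278, 12528 and 5609 bp. The 3′ part of the locus touches Ankrd40, and the regions that touch no other coding gene had 108.5, 63.0, 47.6 and 40.4 CPM (log2 ratios -0.77, -1.17 and -1.40). The region over the start, 5818, 4796, 4518 and 2498 bp long, had 57.9, 36.9, 31.9 and 32.5 CPM, lower at all later times and with 72 and 96 h inside each other's counting interval. The 5 genes whose profile over the 4 libraries was nearest to that of Abcc3 were Pcx, Tmed8, AC132452.5, Sec24a and Serpina1d, at Euclidean distances of 0.110 to 0.171 on centered log2(CPM + 1), over only 4 points that share depth and peak calling. Pcx, pyruvate carboxylase of gluconeogenesis, had 421.6, 211.9, 112.4 and 113.1 CPM.

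The receptor and the repressor of the FXR axis differed at 48 h. Nr1h4 (chr10:89454234-89533585, minus strand) had 375.9, 406.3, 245.6 and 234.3 CPM in 74212, 75348, 42898 and 18885 bp, and log2 ratios of 0.11 (0.08 to 0.14), -0.61 (-0.67 to -0.56) and -0.68 (-0.75 to -0.61). Its level was therefore highest at 48 h, and the levels at 72 and 96 h had overlapping intervals. The region over its upstream start had 106.5, 103.3, 57.9 and 63.3 CPM, and that over the RefSeq start, 26927 bp downstream, 71.3, 75.8, 49.7 and 46.3 CPM, so both starts had the 0 and 48 h libraries above the later ones.

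Nr0b2 (chr4:133553376-133556536, plus strand) encodes SHP, which lacks a DNA-binding domain and represses bile acid synthesis through its partners. Its levels were 144.3, 93.5, 51.8 and 70.9 CPM, lowest at 72 h, and its log2 ratios -0.62 (-0.69 to -0.57), -1.46 (-1.60 to -1.36) and -1.02 (-1.15 to -0.90). The peak at 0 h was 12676 bp long, longer than the gene of 3161 bp. Over this whole stretch the levels were 144.3, 93.5, 67.4 and 85.9 CPM and the ratios -0.62, -1.09 and -0.74, and 94.1% of its bases were in peaks at 48 h. The midpoint of the 0 h peak lay past the gene end, so a rule that assigns peaks by midpoint gave Nr0b2 no level at 0 h. Counting each peak once per nucleus gave 0.37, -0.26 and 0.24, the opposite direction at 48 and 96 h. The window held 1 peak at 0 h and 2 at each later time, and each peak adds to that count.

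The FGF15 receptor pair differed in CPM, while per kb of covered length the log2 ratios were -0.62, -0.36 and 0.78 for Fgfr4 and -0.42, -0.37 and 0.94 for Klb. Fgfr4 (chr13:55152640-55168759, plus strand) had 41.7 (40.2 to 43.3), 36.0 (33.9 to 38.1), 43.3 (39.7 to 47.1) and 45.3 (40.6 to 50.4) CPM, and the intervals of 0, 72 and 96 h overlapped. It had the smallest range of the 10 genes. Its peak over the start was also the 1 member peak whose length was within a ratio of 5 to 4 of that at 0 h in every library (3005, 2784, 2564 and 2438 bp), with 39.4, 29.7, 34.2 and 45.3 CPM. Its log2 ratios of -0.40, -0.20 and 0.19 stand beside medians of -0.01, 0.30 and 1.254 over regions of near-equal length with at least 50 counts on average. Without that minimum such regions numbered 56601, 42726 and 6320 in the genome. Klb (chr5:65348314-65384007, plus strand), whose product lets FGFR4 bind FGF15, had 222.0, 136.7, 122.3 and 129.2 CPM in 33710, 27827, 23997 and 10202 bp. Its log2 ratios were -0.70, -0.86 and -0.78, the interval at 48 h (132.7 to 140.9 CPM) lay above that at 72 h (116.2 to 128.6 CPM), and those of 72 and 96 h overlapped. With each peak counted once per nucleus Klb turned to 0.70, 0.78 and 1.03. The Klb window held 2, 6, 10 and 12 peaks at 0, 48, 72 and 96 h, and each peak adds to that count.

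At the promoters, taken as all peaks that touch the 1000 bp on either side of the start, 4, 9 and 9 of the 10 genes were lower by more than 1.5-fold at 48, 72 and 96 h and 1, 0 and 0 higher. The shares of all 18050 genes tested there were 9.98%, 20.9% and 20.1% lower and 10.9%, 14.0% and 20.4% higher. Fgfr4 was the exception to the lower promoters at 72 and 96 h, and Nr1h4 was the higher one at 48 h (54.0 CPM in 6237 bp at 0 h against 103.3 CPM in 16587 bp). These promoter values depend on peak length, because a broad 0 h domain counts whole. With each peak counted once per nucleus 1, 4 and 5 of the 10 were lower and 1, 1 and 1 higher, beside 5.86%, 18.4% and 16.8% of all genes lower and 7.88%, 11.3% and 17.7% higher. For Slco1b2 the promoter peak was 67249, 20480, 2828 and 568 bp long and held 379.9, 138.5, 13.6 and 6.63 CPM. For Nr0b2 it was 12676, 3350, 2965 and 2087 bp with 144.3, 31.8, 28.5 and 34.7 CPM, so from 48 h on the promoter levels of Nr0b2 had overlapping intervals. For Abcb11, whose promoter peak at 0 h was 7694 bp, the levels were 50.6, 43.6, 28.7 and 32.9 CPM.

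Covered length was therefore set beside the counts of every gene. Across genes, which are not independent replicates, the log2 ratio of CPM followed the log2 ratio of covered length with Pearson's r of 0.889, 0.912 and 0.860. The median log2 ratio of covered length was -0.04, -0.50 and -1.81 for the 10 genes and 0.12, -0.15 and -1.07 for all genes. Fgfr4 was at 0.40, 0.41 and -0.66, above the median of all genes at each time. Relative to the line over all genes, Slc10a1 was at -0.28, -1.0 and -1.24, the lowest of the 10 at 72 and 96 h. Nr0b2 (-0.37, -0.46 and -0.58), Fgfr4 (-0.39, -0.50 and -0.34), Klb (-0.28, -0.54 and -0.35) and Abcc2 (-0.16, -0.50 and -0.43) also lay below it at every time. Abcb11 lay above it at every time, at 0.25, 0.45 and 0.36. Abcc3, with the lowest raw ratios, lay at -0.05, -0.01 and -0.26, and Nr1h4 at 0.27, -0.01 and -0.05, so that 0, 1 and 1 of the 10 genes were more than 1.5-fold below the line, as were 2.27%, 4.76% and 8.03% of all genes.

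**Figure D3:**
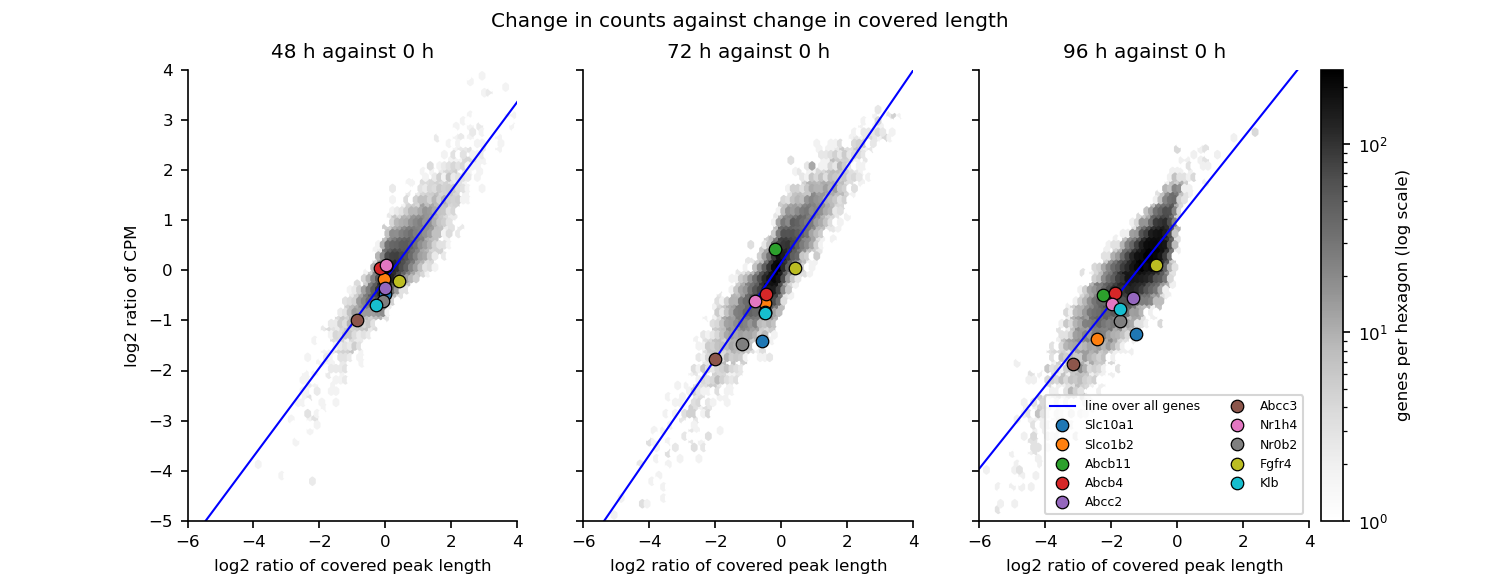
Log2 ratio of CPM to 0 h against log2 ratio of covered peak length to 0 h for all genes (gray hexagons, count on a log scale) and the 10 genes (colored points), with the straight line over all genes in blue. Slc10a1 lies below the line at 72 and 96 h (-1.0 and -1.24), and Abcb11 above it (0.45 and 0.36).

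Levels were compared between genes only per kb of covered peak. At 0 h the order was Nr0b2 (11.4 CPM per kb), Fgfr4 (10.8), Slc10a1 (10.2), Abcc2 (9.73), Abcb4 (6.96), Klb (6.59), Slco1b2 (5.65), Abcc3 (5.15), Nr1h4 (5.06) and Abcb11 (3.08), and the counting intervals overlapped between Nr0b2 and Fgfr4 and between Abcc3 and Nr1h4. At 96 h Nr0b2, Abcb4 and Fgfr4 each had 18.6 CPM per kb, and Abcb11 (10.3) and Slc10a1 (9.92, after 7.43 at 48 h and 5.74 at 72 h) were lowest with overlapping intervals. Per kb, 1, 1 and 0 of the 10 genes were lower and 0, 1 and 9 higher than at 0 h by 1.5-fold, with Fgfr4 lower at 48 h, Slc10a1 lower at 72 h and Abcb11 higher at 72 h. All genes gave 8.05%, 2.41% and 0.142% lower and 1.73%, 12.7% and 91.9% higher, so the 9 higher genes at 96 h are near that background. Slc10a1 was the exception, with a density at 96 h close to that at 0 h.

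Within each library, the genes were also compared along the axis of the liver lobule. Nuclei with at least 10 counts in 10 pericentral markers (such as Glul and Cyp2e1) and 10 periportal markers (such as Cyp2f2 and Hal) were ranked by the balance of the lists, and the 1 in 3 at each end were summed, 1176, 1137, 974 and 747 nuclei per end. None of the 10 genes is in the lists. Slco1b2 was more open in pericentral-leaning nuclei in every library, with 527.9 against 220.7 CPM at 0 h, 447.4 against 225.7 at 48 h, 324.1 against 179.1 at 72 h and 179.6 against 115.4 at 96 h. Its log2 ratios were 1.26 (1.21 to 1.31), 0.99 (0.91 to 1.07), 0.86 (0.71 to 1.01) and 0.64 (0.40 to 0.88), and the middle 90% of all genes lay between -0.35 and 0.34 at 0 h and between -0.49 and 0.54 at 96 h. Peaks are the same for both ends of 1 library, so covered length does not enter this comparison within a library. Between 0 and 96 h the libraries differed in median counts per nucleus (26005 and 3681.5) and in covered length of Slco1b2 (67249 and 12538 bp). The part of these in the smaller ratio at 96 h was not tested.

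Abcc2 was likewise higher in pericentral-leaning nuclei, with log2 ratios of 0.54, 0.76, 0.71 and 0.35, the last within the middle 90% of all genes. Abcb11 was on the other side in every library, at -0.37 (-0.42 to -0.31), -0.21, -0.22 and -0.21 (-0.42 to -0.01), within the middle 90% of all genes after 0 h. Nr1h4 was between -0.13 and -0.04, and Slc10a1 between -0.06 and 0.13. Abcb4 (0.30) and Abcc3 (0.44) were higher in pericentral-leaning nuclei at 0 h. Their ratios were -0.01 and 0.08 at 48 h, -0.04 and 0.17 at 72 h, and 0.32 (0.19 to 0.44) and 0.37 (0.02 to 0.72) at 96 h. Of these 8 ratios only that of Abcc3 at 0 h lay outside the middle 90% of all genes. Past 1.5-fold, 1, 2, 2 and 1 of the 10 genes were higher at the pericentral-leaning end and 0 lower. Of all genes 1.28%, 0.987%, 2.81% and 4.02% were higher and 1.38%, 0.787%, 1.84% and 3.15% lower. Pericentral-leaning nuclei were deeper (median 39511.5 against 23203 counts at 0 h and 5580 against 4315 at 96 h). With the ends taken at equal depth the Slco1b2 ratios were 1.17, 0.89, 0.72 and 0.53 and those of Abcc2 0.49, 0.62, 0.58 and 0.32, and 1, 2, 1 and 0 genes were higher by 1.5-fold, against 1.15%, 0.747%, 2.11% and 3.52% of all genes, and 0 were lower, against 1.30%, 0.547%, 1.55% and 2.81%. At equal depth the 0 h ratio of Abcb4 (0.36) lay outside the middle 90% of all genes (-0.34 to 0.33), as did that of Abcc3 (0.48).

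**Figure D4:**
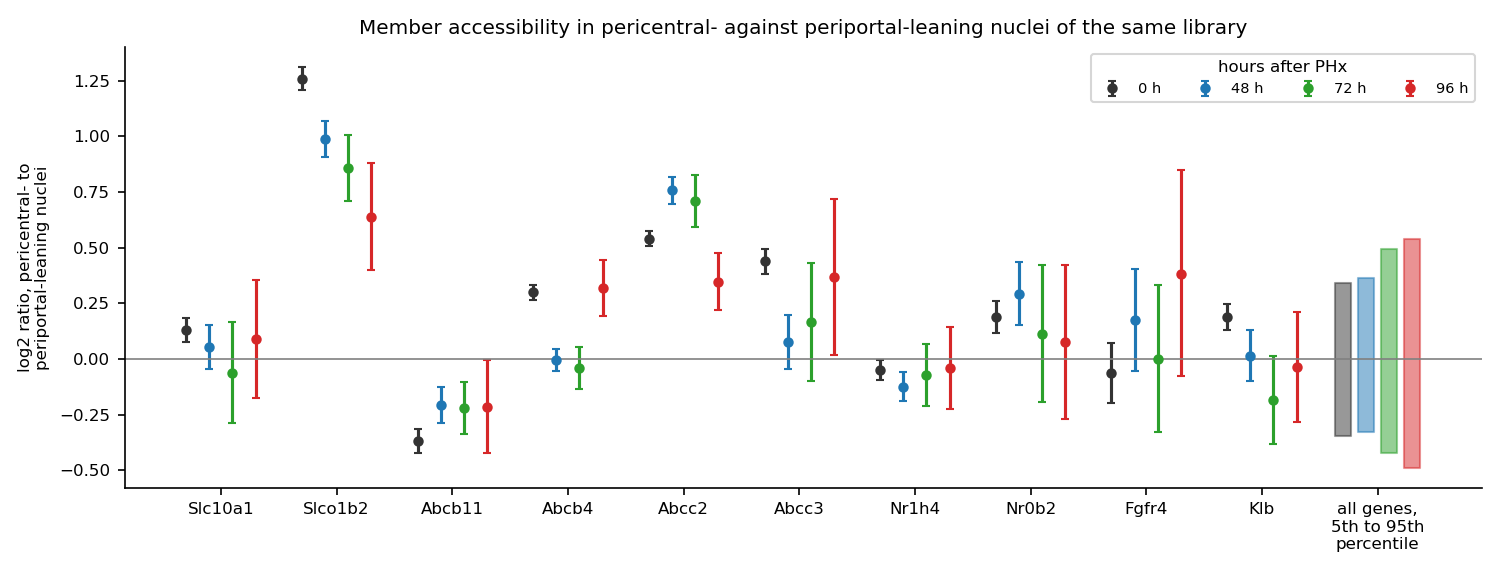
Log2 ratio of the summed CPM of pericentral-leaning to periportal-leaning nuclei in each library for the 10 genes (points, bars are 95% counting intervals), with the 5th to 95th percentile of all genes as shaded bars at the right. Slco1b2 is highest in every library, from 1.26 at 0 h to 0.64 at 96 h, and Abcb11 is below 0 in every library.

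Nuclei with more counts in nonparenchymal than in hepatocyte markers, and at least 3 of the former, numbered 177, 156, 445 and 71. At 0 and 48 h, 9 and 8 of the 10 genes were lower in them by more than 1.5-fold, against 24.1% and 21.7% of all genes. Slco1b2 had 60.6 against 382.5 CPM in the other nuclei at 0 h, and Abcc2 108.8 against 696.8 CPM (log2 ratio -2.68). Abcc3 differed from them, with 239.9 against 258.1 CPM at 0 h (log2 ratio -0.11, -0.36 to 0.14) and 183.7 against 127.8 CPM at 48 h (0.52, 0.14 to 0.89). At 72 and 96 h 0 and 2 genes (Nr1h4 and Fgfr4, both with intervals that include 0) were lower, against 5.61% and 30.0% of all genes, and hepatocyte markers summed to 1035 and 1092 CPM in the selected nuclei, compared with 423 CPM at 0 h. Without the selected nuclei no count of members past 1.5-fold moved by more than 1.5 times.

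Of 34 other genes of bile acid transport and FXR signaling, all of which were tested, 5, 5 and 4 were higher and 6, 12 and 15 lower by more than 1.5-fold at 48, 72 and 96 h. Of all genes 13.7%, 19.3% and 18.0% were higher and 7.85%, 17.6% and 20.1% lower. The median log2 ratios of the 34 genes were -0.14, -0.29 and -0.23. Slco1a1, a basolateral organic anion carrier, had the lowest ratios, with 203.0, 63.3, 36.2 and 10.7 CPM (log2 ratios -1.67, -2.46 and -4.12) in 54742, 18612, 9493 and 1422 bp. Kdm6b, a histone H3K27 demethylase, had 241.1, 108.6, 108.5 and 100.6 CPM. Slc51a, a subunit of the basolateral exporter OST, had 10.5, 16.0 and 8.98 CPM at 0, 48 and 72 h and no peak at 96 h. It was counted among the 15 lower genes as a level of 0.

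Rxra, the partner with which FXR binds DNA, was higher at every later time in the gene window, with 751.0, 1145, 1401 and 1394 CPM (log2 ratios 0.61, 0.90 and 0.89). Its covered length was 99673, 104983, 102924 and 91081 bp, close to that at 0 h in each library. Regions of near-equal length had median ratios of -0.01, 0.30 and 1.254, so the Rxra ratio lay above that median at 48 and 72 h and below it at 96 h. At its promoter the ratios were 0.61, 0.90 and -3.24. The peaks that touch the promoter held the whole window level at 0, 48 and 72 h. At 96 h they held 78.7 of the 1394 CPM, so the last ratio compares stretches of unlike extent. Osbpl1a had 451.8, 947.7, 245.4 and 241.9 CPM, high at 48 h alone, in 84706, 123882, 37405 and 17108 bp. At its promoter the ratio at 48 h was -0.12. Abcb1b, a multidrug exporter, had 23.1, 34.8, 34.3 and 46.7 CPM, and its ratio was largest at 96 h (0.98). Fgf15 itself, whose transcript is known mainly from the ileum, had 7.67, 14.6, 16.3 and 11.2 CPM, in peaks of 1624, 3760, 2921 and 852 bp.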

How the data were processed

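Open chromatin was measured by scATAC-Seq in hepatocytes of mice, with 1 library per time point and 4 in all. The authors made the deposited counts, transposase cut sites per peak and barcode, with Cell Ranger ATAC (version 1.1.0 in the file headers, build mm10 per the labels), which aligned reads, removed duplicates and called the peaks separately for each library. Between 87.3% and 88.6% of values were even, because both ends of a fragment add a count. The filter the study placed on nuclei is not used here.

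Barcodes with at least 1000 counts in peaks were kept. No doublet caller was run, and leaving out the 5% of nuclei with the most counts was an alternative. Counts were summed per library over all peaks that overlapped (by at least 1 bp) a GENCODE vM21 gene body plus 2000 bp upstream, or 1000 bp on either side of the start, and divided by the total of the same barcodes (CPM). Total counts per library were 14935507 to 136582768, and 3 counts correspond to 0.0220, 0.0484, 0.121 and 0.201 CPM at 0, 48, 72 and 96 h. Log2 ratios used a pseudocount of 1 CPM. A gene passed at 1.5-fold, among genes with a mean of at least 5 CPM. Intervals are exact 95% Poisson intervals on counts divided by 2. PCR duplicates had been removed upstream, and intervals and limits cover counting error only. There was no replicate and no test. Touching or overlapping peaks of the 4 libraries were merged into regions. Regions with 1 peak in each of a pair of libraries and lengths within a ratio of 5 to 4 were of near-equal length. Medians over them used those with at least 50 counts on average. Promoter sequences came from RefSeq (GRCm38.p6).

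The 10 genes and all lists were chosen with earlier results of these data known. All 10 are named, with the 2 other pathway genes of largest rise and of largest fall at each time point and the 5 genes nearest in profile to the member of widest range. Alternatives were another barcode minimum, pseudocount, window, scaling or threshold, counts per kb, binarised counts and regions of near-equal length. The scalings to regions of near-equal length, to a line over covered length and to the chromosome median, the whole merged regions, and the equal-depth ends of the lobule axis were added after seeing the data. The code was tested on simulated data. Python 3.11.15, numpy 2.4.6, pandas 2.3.3, scipy 1.17.1 and matplotlib 3.10.9 were used.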

Additional observations from a re-analysis of the deposited data

How the results depend on the processing

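No paired analysis was possible because each time point had 1 library, and no replicate could be left out. Log2 ratios to 0 h and counts of members past 1.5-fold are given for 48, 72 and 96 h in that order. Binarised counts gave the gene windows 3, 4 and 3 members higher and 0, 1 and 1 lower, and a median of 0.31, 0.42 and 0.40. Under them Klb was at 0.70, 0.78 and 1.03, Nr0b2 at 0.37 (48 h) and 0.24 (96 h), Slc10a1 at 0.32 and 0.56 and Slco1b2 at 1.67 and 1.23 (72 and 96 h), and Abcc2 at 1.85 (72 h). At promoters they gave 1, 4 and 5 members lower and 1 higher at 72 and at 96 h, medians of -0.48 and -0.56 at 72 and 96 h, 0.0915 for Slco1b2 at 48 h, and 0.83 and 1.37 for Abcc2 at 72 and 96 h. A long peak counts at most once per nucleus there, while a gene under several peaks can count once for each, which is the construction of that setting. Assigning peaks by midpoint gave 1 member higher at each time (all genes 14.1%, 22.0% and 21.8%), Nr0b2 at 5.04, 4.88 and 5.16, since its 0 h peak was not counted. Per kb, 1, 1 and 0 members were lower and 1 and 9 higher at 72 and 96 h, the median at 96 h was 0.999, Abcc3 was at 0.22 and 1.27 and Nr1h4 at 0.18 and 1.29 (72 and 96 h), and Slco1b2, Nr0b2 and Klb at 1.06, 0.71 and 0.94 at 96 h. Relative to the line on covered length 0, 1 and 1 members were lower, with a median of -0.34 at 96 h. Regions of near-equal length left 6, 3 and 1 members, of which 1, 0 and 0 were lower (all genes with such regions 3.83%, 3.83% and 0%), and only Fgfr4 at 96 h (0.19). For promoters they left 4, 1 and 1 members, 0 higher at 48 h, 1, 0 and 0 lower, and medians of -0.20 and 0.19 at 72 and 96 h. Scaling to those regions made all 10 members lower at 96 h, with a median of -1.98, as it did 85.7% of all genes. Past 2-fold, 1 and 3 members were lower at 48 and 72 h (2.52% and 7.62% of all genes), and 0 promoters higher at 48 h (5.78%). Scaling to the median of all genes (14.6% of promoters then higher) or of the chromosome gave 2 promoters higher at 48 h. Equal-depth ends of the lobule axis gave 1 and 0 members higher at 72 and 96 h. The causes of these differences beyond the construction of each setting were not tested. Of 896 values for single genes under all alternatives, 614 stayed within their counting interval and 259 moved. The sign changed in 53, of which 23 had been past 1.5-fold and 30 had not. The 96 h library, with the fewest counts and the least covered length, limits every value at that time.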
